A study of Arabidopsis thaliana with 9 samples.

Results

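The HSP70/HSP90 chaperone system of Arabidopsis thaliana was followed through heat stress and recovery in lists of candidate miRNA slice sites. The 5 genes described were HSP70B (AT1G16030), HSP70T-2 (AT2G32120), MTHSC70-2 (AT5G09590), HSP90.1 (AT5G52640) and the co-chaperone gene Fes1A (AT3G09350). Every listed site of these 5 loci was taken, whatever miRNA was named for it, which gave 8 of 1662 sites and 31 of 3041 lines, in 5 of 1508 genes. The genes were picked from these same lists with their slice-site signal in HS and Control already known, so their HS and Control values are given as a description and no test is drawn from them.

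RNA ends had been captured by nanoPARE, a method that sequences the 5′ ends of RNAs, among them the uncapped ends left on the 3′ fragment after a miRNA-guided cut. The material was whole Col-0 seedlings, the wild-type accession and the only genotype used, at an age of 7 days. Control seedlings were not heated, HS (heat stress) seedlings were held for 1 h at 37°C, and Recovery seedlings were heated in the same way and then kept for 2 h at 22°C. Each group had 3 libraries, described by the submitters as biological replicates.

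HSP70 proteins bind exposed hydrophobic stretches of unfolded clients and release them in a cycle driven by ATP, and HSP90 proteins act on partly folded clients handed on from HSP70. J-domain proteins start the HSP70 cycle, and nucleotide exchange factors, to which the Fes1 family belongs, end it by removing ADP. In plants the cytosolic members of this system are strongly transcribed on heating under the control of heat shock factors. Plant miRNAs guide AGO1 to cut well-paired transcripts opposite miRNA bases 10 and 11.

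The 8 candidate sites named 7 miRNAs with 7 different seeds (miRNA bases 2 to 8), and only miR414 was named at more than 1 of the genes, HSP70B and HSP90.1. Target sites are printed for 1 site of each gene, on which the values below turn. They are in RefSeq sequence of build TAIR10.1, 5′ to 3′ on the strand of the gene, with capitals at the bases that form Watson-Crick pairs with the named miRNA.
HSP70B site for miR414: ccAtGgTGtTGgTGAAGATGA
HSP70T-2 site for miR835-5p: tATcAAGAACgTATGCAAGAA
MTHSC70-2 site for miR5638a: AAAGTGAGGAGaTTTGGTAa
HSP90.1 site for miR414: TGACGATGAgGATGAAGATGA
Fes1A site for miR5013: gAAtCACCTtGATGTCACAAg
The 4 miRNAs named there are printed for comparison, 5′ to 3′ from the same build, with the seed in capitals.
miR414: tCATCTTCatcatcatcgtca
miR835-5p: tTCTTGCAtatgttctttatc
miR5638a: aTACCAAAactctctcacttt
miR5013: tTTGTGACatctaggtgcttt
The HSP90.1 site formed Watson-Crick pairs with miR414 at 20 of its 21 bases. The HSP70B site formed Watson-Crick pairs with the same miRNA at 15 of 21 and G:U (wobble) pairs at 3 more. The seed of miR414 is fully paired in both. In HSP70B, 1 of the G:U pairs lies at miRNA base 10, and the unpaired bases lie opposite miRNA bases 3′ of it.

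The HSP90.1 site is at chr5:21353701-21353721 (plus strand), in coding sequence of exon 4 of 4. The Fes1A site is at chr3:2872859-2872879 (plus strand), in coding sequence of exon 6 of 6. The MTHSC70-2 site is at chr5:2978502-2978521 (plus strand) in exon 6 of 6 and lies across the stop codon. HSP70B has a single exon, and its coding sequence on the minus strand holds the miR414 site at chr1:5503936-5503956, the miR832-5p site at chr1:5503708-5503728 and the miR169a-3p site at chr1:5503510-5503529. HSP70T-2, also on the minus strand, holds both of its sites in coding sequence of exon 2 of 2, the miR835-5p site at chr2:13652279-13652299 and the miR5628 site at chr2:13651966-13651987. These coordinates come from matching the miRNA to the RefSeq transcript. The base opposite miRNA base 10 was 1 base past the deposited slice position in HSP70B and Fes1A, 25 bases past it at both HSP70T-2 sites, 113 bases past it in MTHSC70-2 and at -157 bases relative to it in HSP90.1, whose RefSeq transcript begins at the start codon.

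**Figure D1:**
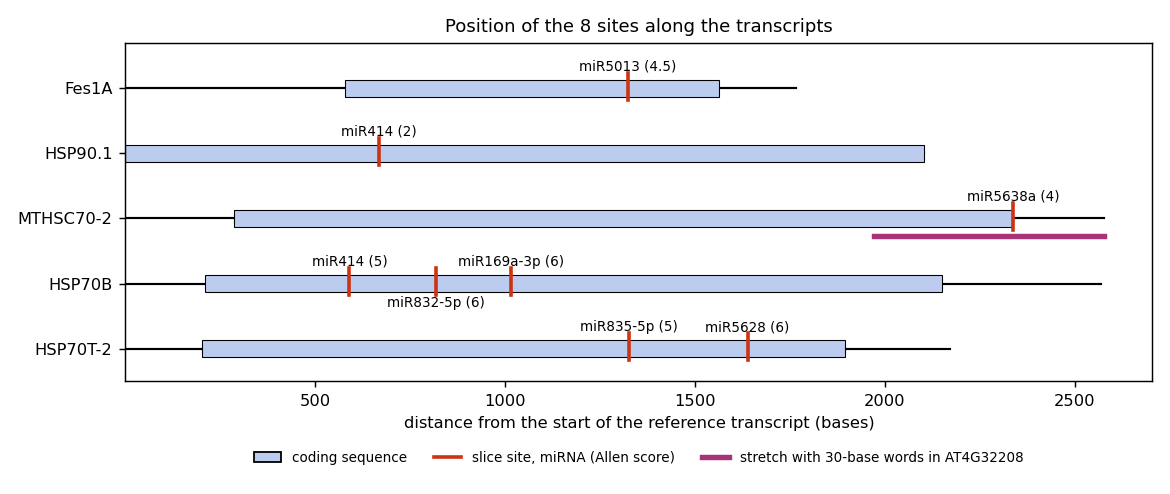
Map of the 5 RefSeq transcripts, drawn to scale in bases from the transcript start, with coding sequence as boxes, the 8 slice sites as red bars labelled with the named miRNA and its Allen score, and the part of MTHSC70-2 that shares 30-base words with AT4G32208 as a purple bar. All sites but 1 lie within coding sequence, the exception being the MTHSC70-2 site at the stop codon, inside the shared stretch.

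The Allen score penalises mismatches between miRNA and target, from 0 for full pairing up to 6 in these lists. It was 2 for HSP90.1, 4 for MTHSC70-2, 4.5 for Fes1A, 5 for HSP70B with miR414 and HSP70T-2 with miR835-5p, and 6 for the other 3 sites. Only 25 of the 1662 sites (1.5%) scored lower than HSP90.1. The median over the 8 sites was 5, beside 5.5 over the sites of all other genes. miR414 was named at 255 of the 1662 sites (15.3%), in 242 loci, of which 6 scored below 2 and 6 scored 2, HSP90.1 among them.

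Slice-site signal is given in RPM, reads that start at the site scaled to the size of the library, with 0 for sites missing from a list. One read was worth 0.217 to 0.429 RPM, corresponding to implied library totals of 2331769 to 4609739 reads. All 31 values of the 5 genes were whole multiples of 1 read within 0.01 of a read, and 17 of them rested on fewer than 5 reads and 4 on a single read. The counting error is therefore large at single sites, and PCR copies could not be told from separate molecules. Of the tissue markers looked up, 3 of 7 green tissue genes and 0 of 5 root genes had a listed site, and a gene enters these lists only through such a site. LHCB1.3, a light-harvesting protein gene, had a Control mean of 13.2 RPM, an HS mean of 5.41 RPM and a Recovery mean of 1.2 RPM, and fell by 2.75 on the log2 scale between Control and Recovery (limma adjusted p = 0.0187). LHCB4.1, also a light-harvesting protein gene, differed by -1.24 (adjusted p = 0.275) and PSAG, a photosystem I subunit gene, by 1.22 (adjusted p = 0.101) between the same groups in limma. None of the 3 passed between HS and Control or between Recovery and HS, and their part in the values of the chaperone genes was not tested.

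Summed over the 8 sites, the 5 genes had 0, 0.349 and 0 RPM in the Control libraries (replicates 1, 2 and 3). The HS libraries held 11.9, 13.3 and 36.8 RPM, and the Recovery libraries 0.291, 4.33 and 2.39 RPM. The HS mean was 20.7 ± 14.0 RPM (SD, n = 3), against Recovery at 2.33 ± 2.02 RPM and Control at 0.116 ± 0.201 RPM. HS did not overlap with either of the other groups. In reads these sums were 35, 53 and 113 in HS, 1, 14 and 11 in Recovery, and 0, 1 and 0 in Control. HS replicate 3 was 2.77 times the next HS library, and without it the HS mean was 12.6 RPM. The Recovery mean was 1.34 RPM without Recovery replicate 2. As a share of all listed RPM, the 5 genes held 3.88%, 7.81% and 10.7% in HS, 0.232%, 2.39% and 1.39% in Recovery, and 0.0369% ± 0.0638 (SD, n = 3) in Control. A slice-site value counts ends at 1 position. Transcript levels were not analysed here, so more transcript and more cutting cannot be told apart in these values, and in whole seedlings neither can fewer cells of a type and less RNA per cell.

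**Figure D2:**
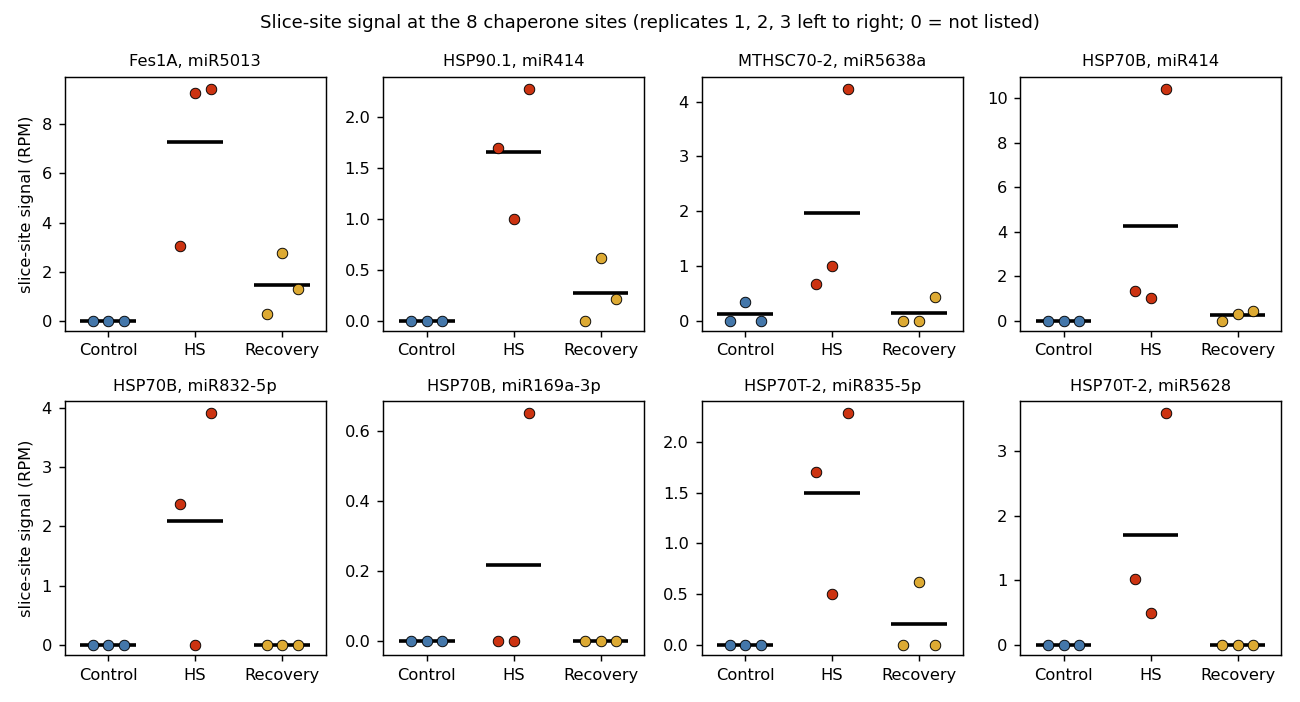
Slice-site signal in RPM at each of the 8 sites, with 1 point per library (Control, HS and Recovery, replicates 1 to 3 from left to right), a bar at the mean of each group and 0 for a site not listed, on a separate vertical scale per panel. HS libraries reached 9.45 RPM at Fes1A and 10.4 RPM at the miR414 site of HSP70B, and MTHSC70-2 was the only one of the 5 genes with a listed Control library.

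HSP70B encodes a cytosolic HSP70 that is induced by heat. Its miR414 site, the strongest of its 3, was listed in no Control library, at 1.36, 1.00 and 10.4 RPM in HS, and at 0, 0.309 and 0.434 RPM in Recovery. The HS values rested on 4, 4 and 32 reads, for which counting error alone allows 1.09 to 10.2 reads at 4 and 21.9 to 45.2 at 32 (exact Poisson 95% intervals). The interval of HS replicate 3 thus lay above those of the other HS libraries. The intervals take each read as a separate molecule, which could not be told from PCR copies. All HS libraries lay above all Recovery libraries. Its HS mean was 4.26 ± 5.34 RPM and its Recovery mean 0.248 ± 0.223 RPM (SD, n = 3), a ratio of 17.2 that was 4.78 without HS replicate 3 and 27.6 without Recovery replicate 3.

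The other HSP70B sites were listed after heating only. For miR832-5p, HS replicates 1 and 3 had 2.38 and 3.91 RPM (7 and 12 reads), and no other library listed the site. For miR169a-3p, HS replicate 3 had 0.652 RPM from 2 reads. Neither site was listed in the 3 libraries that the site test asked for, so they were not tested.

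HSP70T-2 encodes a truncated member of the HSP70 family. At its miR835-5p site the HS libraries had 1.70, 0.502 and 2.28 RPM, Recovery replicate 2 had 0.618 RPM, and the other Recovery libraries and all Control libraries did not list it. Recovery replicate 2 lay above HS replicate 2, so HS and Recovery overlapped at this site, with means of 1.49 ± 0.908 and 0.206 ± 0.357 RPM (SD, n = 3). At its miR5628 site the HS libraries had 1.02, 0.502 and 3.59 RPM, and no Control or Recovery library listed it. Both sites were lowest in HS replicate 2 and highest in HS replicate 3.

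MTHSC70-2 encodes a mitochondrial HSP70, which helps to import and fold proteins in the matrix. Its miR5638a site had 0, 0.349 and 0 RPM in Control, 0.681, 1.00 and 4.24 RPM in HS, and 0, 0 and 0.434 RPM in Recovery. The HS mean was 1.97 ± 1.97 RPM and 0.842 RPM without HS replicate 3, against a Recovery mean of 0.145 ± 0.25 RPM and a Control mean of 0.116 ± 0.201 RPM (SD, n = 3). Every HS library was above every Control and Recovery library in RPM. The HS values rested on 2, 4 and 13 reads, and the listed Control and Recovery values on 1 and 2 reads. HS replicate 1 and Recovery replicate 3 thus held the same number of reads (2) and differed only through library size. MTHSC70-2 was also the gene whose reads are least certain. Of the 2547 30-base words of its transcript, 490 (19.2%) recur in AT4G32208 (chr4:15558511-15559111), over transcript bases 1972 to 2576, which hold the site. The 30 bases from the slice base occur at both places in the genome and 50 bases at 1 place only. The sources used here do not give how reads mapping to both were counted. Some listed values were not whole reads, as at the miR397a site of HSP70-15 in HS replicate 1 (0.334 RPM, where 1 read was 0.340 RPM). The values of the MTHSC70-2 site were whole reads. The transcripts of the other 4 genes shared no 30-base word with another place in the genome.

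HSP90.1 encodes the heat-induced cytosolic HSP90. Its miR414 site had 1.70, 1.00 and 2.28 RPM in HS (5, 4 and 7 reads), 0, 0.618 and 0.217 RPM in Recovery (2 reads and 1 read where listed), and was listed in no Control library. All HS libraries lay above all Recovery libraries. The mean of 1.66 ± 0.640 RPM in HS was 5.97 times that of 0.278 ± 0.314 RPM in Recovery (SD, n = 3), and the ratio was 15.3 without Recovery replicate 2 and 3.98 without Recovery replicate 1. The spread among HS replicates, relative to their mean, was the smallest of the 8 sites.

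Fes1A encodes a nucleotide exchange factor related to yeast Fes1, which in Arabidopsis protects cytosolic HSP70 from degradation and contributes to acquired thermotolerance. Its miR5013 site was the only one listed in every HS and every Recovery library. It had 3.06, 9.28 and 9.45 RPM in HS (9, 37 and 29 reads) and 0.291, 2.78 and 1.3 RPM in Recovery (1, 9 and 6 reads), and no Control library listed it. All Recovery libraries thus lay above all Control libraries and below all HS libraries, although the highest of them came close to the lowest HS library. The HS mean of 7.27 ± 3.64 RPM was 4.98 times the Recovery mean of 1.46 ± 1.25 RPM (SD, n = 3), and the ratio was 9.12 without Recovery replicate 2.

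Replicates did not rank alike across genes. HS replicate 3 was the highest HS library at each of the 8 sites. HS replicate 2 was the lowest HS library, or did not list the site, at HSP70B, HSP70T-2 and HSP90.1, whereas at Fes1A and MTHSC70-2 the lowest was HS replicate 1.

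Of the 8 sites, 6 were listed in at least 3 of the 9 libraries and entered the test of single sites, limma on log2(RPM + 1) of 322 sites in 1 fit with Benjamini-Hochberg adjustment. They passed that filter through the HS libraries for which they were chosen. Between HS and Control, all 6 had every HS library above every Control library, as had 20 of the 322 sites (6.21%), and 5 passed an adjusted p of 0.05, as did 16 of the 322 (4.97%). The 5 were higher in HS, as were 11 of the 322 (3.42%). In 5 of the 6, every HS library was above all other libraries, as in 12 of the 322 (3.73%). Since the genes were chosen on this contrast, nothing is read from these counts. The fitted differences of log2(RPM + 1) were 2.92 for Fes1A, 1.92 for HSP70B, 1.38 for HSP90.1, 1.24 for MTHSC70-2, and 1.24 and 1.27 for HSP70T-2 with miR835-5p and miR5628.

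To describe the signal 2 h after the heat, Recovery was compared with Control, a contrast that shares the Control libraries with the one used for the choice. Low Control values went with that choice, so nothing is read from the direction of a difference or from the p-values below. None of the 6 sites passed in limma, where 9 of the 322 sites (2.80%) did, 2 of them higher (0.621%) and 7 lower (2.17%) in Recovery, and 1 of the 6 was under an unadjusted p of 0.05, as were 62 of the 322 (19.3%). That site was Fes1A, with a log2 difference of 1.16 (SE 0.486, adjusted p = 0.184). The others ran from 0 at the miR5628 site of HSP70T-2, which neither group listed, to 0.33 at HSP90.1 (adjusted p = 0.572). Fes1A was also the only one of them with every Recovery library above every Control library, as were 23 of the 322 sites (7.14%).

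Recovery was then compared with HS, which shares the HS libraries that set the choice and took the sites through the filter. A drop from HS is thus built into the choice, and nothing is read from its direction or from the p-values below. None of the 6 sites passed in limma, where 3 of the 322 (0.932%) did, while all 6 were under an unadjusted p of 0.05, as were 38 of the 322 (11.8%). The log2 difference was -1.76 for Fes1A (SE 0.486, adjusted p = 0.0948), -1.62 for HSP70B (SE 0.485, adjusted p = 0.110) and -1.27 for HSP70T-2 at miR5628 (SE 0.366, adjusted p = 0.0948). It was -1.21 for MTHSC70-2 (adjusted p = 0.123), -1.06 for HSP90.1 (adjusted p = 0.123) and -1.01 for HSP70T-2 at miR835-5p (adjusted p = 0.152). Whether a site passed turned on single libraries. Without HS replicate 2 limma gave an adjusted p of 0.0484 for HSP70B and for HSP90.1, and of 0.0446 and 0.0281 for the HSP70T-2 sites. Fes1A had 0.0312 without HS replicate 1 and 0.0310 without Recovery replicate 2. Other libraries moved the sites the other way. Without HS replicate 3 the adjusted p in limma ran from 0.184 (HSP70T-2 with miR5628) to 0.603 (MTHSC70-2). HSP70B and HSP90.1 both had 0.481 there. In 5 of the 6 sites every Recovery library lay below every HS library, as in 24 of the 322 (7.45%), the exception being HSP70T-2 with miR835-5p.

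A second deposited measure sets the site against a local background. The deposited fold was taken as the signal at the site, plus 1 RPM, over that background, plus 1 RPM, and the background was solved from it. The sources used here do not give the stretch it covers, or whether it is a sum, a mean or a maximum. A fold under 1 is therefore not read as a site lower than its neighbouring positions. Over the 5 genes, 27 of 31 lines (87.1%) had a fold under 1, beside 60.4% of the 3010 lines of other genes. In HS it was 19 of 21 lines beside 60.6% of the others. The median fold in HS was 0.279 for the 5 genes and 0.803 for the others, and the median background in HS 10.8 and 0.753 RPM. The added 1 RPM draws a fold towards 1 where site and background are both low. These medians are therefore not read as raw ratios of site to background. None of the 8 sites reached a fold of 2 in any library, and only 24 of all 1662 sites did, so nothing is read from this. These shares are descriptions without a test, because the fold contains the RPM on which the genes were chosen.

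MTHSC70-2 had the most extreme ratio. Its local background was 2.79 RPM in Control replicate 2, then 219, 394 and 368 RPM in the HS libraries, and 40.8 RPM in Recovery replicate 3. Against these the site itself gave a fold of 0.356 in Control, of 0.00763, 0.00507 and 0.0142 in HS, and of 0.0343 in Recovery. The 3 HS backgrounds were the highest of all 3041 lines and the only ones over 200 RPM. The next was 117 RPM at LHCB4.1, a light-harvesting protein gene, in Recovery replicate 3. The MTHSC70-2 site lies in the stretch shared with AT4G32208, and whether its backgrounds hold reads of that locus was not tested. In reads they were 644, 1571.62 and 1128.2 in HS replicates 1, 2 and 3, so the last 2 were not whole reads.

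HSP70B at miR414 lay at the other end. Its site and its background were close together in HS, with backgrounds of 2.38, 0.753 and 7.17 RPM and folds of 0.698, 1.14 and 1.40. In Recovery replicates 2 and 3 the folds were 0.809 and 0.623. The 2 HS lines with a fold over 1 were the only HS lines of the 5 genes with a site signal above the local background. The other HSP70B sites were covered by backgrounds of 5.45 and 12.1 RPM at miR832-5p (folds of 0.525 and 0.376) and 12.4 RPM at miR169a-3p (fold of 0.123).

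At Fes1A the background was 12.6, 9.78 and 16.6 RPM in HS and 1.75, 3.40 and 1.28 RPM in Recovery, so that background and site were both lower in Recovery. The fold was 0.299, 0.953 and 0.593 in HS and 0.470, 0.860 and 1.01 in Recovery. The ranges of the fold in HS and Recovery overlapped.

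HSP90.1 had backgrounds of 8.17, 4.01 and 23.1 RPM in HS and 1.85 and 0.651 RPM in Recovery replicates 2 and 3. Its folds of 0.295, 0.400 and 0.136 in HS were all below those of 0.567 and 0.737 in Recovery. The Recovery lines held only 2 reads over a background of 6 and 1 read over 3. At such low values the added 1 RPM draws the fold towards 1, so nothing is read from the difference. The HSP70T-2 sites had HS backgrounds of 9.19, 5.27 and 10.8 RPM at miR835-5p and 10.6, 19.1 and 24.4 RPM at miR5628. Their HS folds ran from 0.240 to 0.279 and from 0.0748 to 0.180, and the single Recovery line, at miR835-5p, had a fold of 1.

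**Figure D3:**
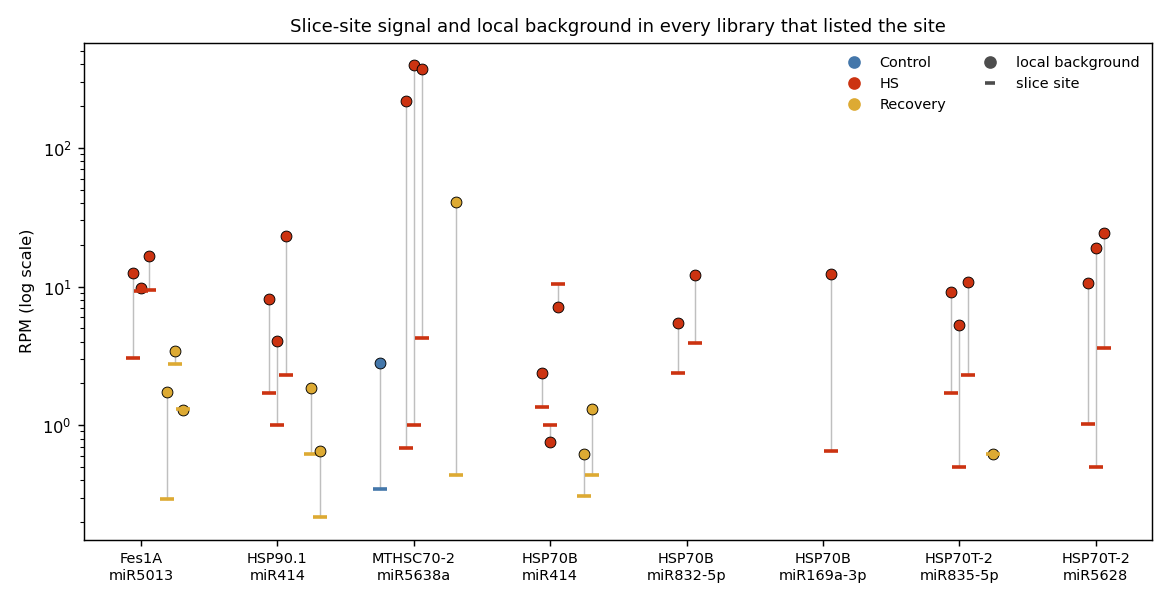
Slice-site signal (dashes) and local background (circles) in RPM on a log scale, for each library that listed the site, coloured by group and joined by a grey line. The circles lie above the dashes in all but 4 lines, and the MTHSC70-2 backgrounds of 219 to 394 RPM in HS stand apart from all others.

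The authors' own adjusted p, given per line and library by their pipeline, was under 0.05 for 3 of the 31 lines, beside 126 of all 3041. All 3 were at HSP90.1, in HS replicate 1 and Recovery replicates 2 and 3, each listed at 0, while HS replicates 2 and 3 had 0.157 and 0.268. These 3 lines rested on 5 reads, 2 reads and 1 read and had folds under 1. Over all genes, 24 of the 126 lines (19.0%) had a fold under 1, and 13 of the 24 named miR414.

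**Figure D4:**
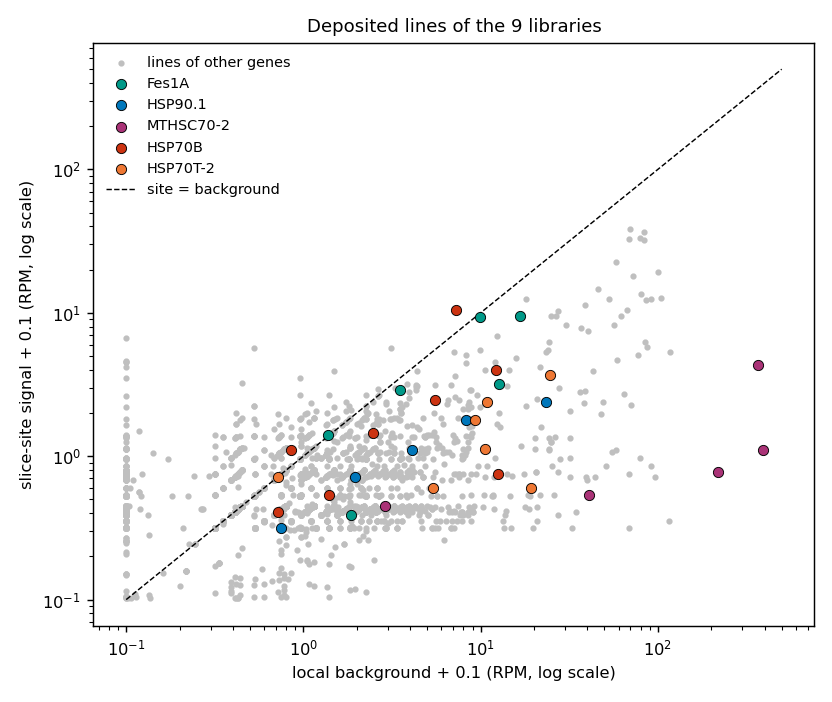
Slice-site signal against local background for the 3041 deposited lines, both in RPM plus 0.1 on log axes, with the 31 lines of the 5 genes in colour and the line of equal values dashed. Of the 31 points, 27 lie below the dashed line, and those of MTHSC70-2 in HS lie farthest to the right.

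The other genes of the chaperone system were looked up in the same lists. Of 15 other HSP70 family genes, 4 had a listed site, of 6 other HSP90 genes 2, of 17 other co-chaperone genes 5, and of 7 disaggregase and chaperonin genes 0. Of their sites, 5 were listed in at least 3 libraries, and limma called none of them higher or lower in any of the 3 contrasts. J3, a J-domain partner of HSP70, has a miR414 site with an Allen score of 2.5. Summed over the 9 libraries it held 7.90 RPM and P23-1, an HSP90 co-chaperone with a miR414 site, 7.43 RPM, each more than HSP90.1 or MTHSC70-2. J3 had 0.429, 0 and 0 RPM in Control, 1.02, 2.01 and 1.3 RPM in HS and 1.16, 1.55 and 0.434 RPM in Recovery, with HS above Control in every library and a log2 difference of 1.1 (SE 0.372, limma adjusted p = 0.110). P23-1 had a lower mean in HS than in Control, with 1.72, 1.4 and 0 RPM in Control, 1.02, 0 and 0.326 RPM in HS and 0.873, 1.24 and 0.868 RPM in Recovery. Its difference between HS and Control was -0.43 (SE 0.413, limma adjusted p = 0.607).

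The organelle and other cytosolic members stayed near 1 or a few reads. CPHSC70-1, the chloroplast stromal HSP70, had 0.698 RPM in Control replicate 2 and 1.3 RPM in HS replicate 3 only. HSP90.5, the chloroplast HSP90, reached 0.978 RPM in HS replicate 3 with miR831-5p and 0.429 RPM in Control replicate 1. HOP3, which bridges HSP70 and HSP90, reached 0.652 RPM in HS replicate 3. HSP70-15, HSP70-17, HSP90.4, BAG6 and CHIP had at most 0.340 RPM at any single site in a library, and HSP70-15 had 2 sites. Among 13 heat shock factor and regulator genes, HSFA7A and HSFB1 were listed, in HS libraries only and at up to 0.502 RPM, and neither was tested.

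Small heat shock proteins, ATP-independent chaperones that hold unfolded proteins for HSP70, were set beside the 5 genes as the most similar list. Of 16 genes, 6 had sites, 7 in all, and limma called 5 of the 7 higher in HS than in Control, 2 higher in Recovery than in Control and 2 lower in Recovery than in HS. Over all 322 sites tested these calls numbered 11 (3.42%), 2 (0.621%) and 3 (0.932%). The list was chosen with earlier results of these data known, so nothing is read from its counts. All 37 lines of the small heat shock proteins had a fold under 1, with a median in HS of 0.0981. Known miRNA targets were set beside them for the same measures. ARF10, ARF17, HAM1 and HAM2, transcription factor genes cut under miR160 or miR171, had 20 lines, of which 0 had a fold under 1, with a median fold of 2.28 over all lines and 1.49 in HS, a median Allen score of 0.25 and an authors' adjusted p under 0.05 in all 20. These 4 genes were picked with earlier results of these data known. limma called all 4 lower in HS than in Control, by -2.51 for ARF10, -1.58 for ARF17, -1.86 for HAM1 and -1.15 for HAM2. Of all 322 sites tested, 5 (1.55%) were called lower there. It called ARF10, ARF17 and HAM2 lower in Recovery than in Control, HAM1 missed the threshold there (adjusted p = 0.0758), and none was called between Recovery and HS.

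The sites whose signal over the 9 libraries was most like the summed signal of the 5 genes were ranked by Pearson's r of log2(RPM + 1), as a description over 316 sites that share these libraries. HSP17.8 (AT1G07400) had an r of 0.949, and its HS libraries held 32.7, 12.5 and 32.9 RPM. HSP17.4 at its miR173-3p site followed with 0.913, then FBS1, a stress-induced F-box protein gene with a miR414 site, with 0.906. HSP17.6B (AT2G29500) had 0.865 and AT4G14270 had 0.862.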

How the data were processed

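nanoPARE reads from the 9 libraries had been processed by the authors with the public nanoPARE pipeline. Per the labels the build was TAIR10. For the pipeline version, aligner settings, miRNA set and handling of reads mapping to several places, the value was not given in the sources used here. Each library has its own list of miRNA-target pairs, and replicates were not pooled. The authors deposited slice-site signal in RPM, a fold ratio over local background, an adjusted p-value per line and an Allen score. Slice positions were deposited as bases along the transcript.

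The value of 1 read was the commonest RPM value of a library, and 89.2% to 94.4% of values per library were whole multiples of it within 0.01 read, so count models were not used. Background was solved as (RPM + 1)/fold - 1, a form not given in the sources used here, and 93.2% of the solved values were whole reads. Groups and replicate numbers came from sample titles. lmFit and eBayes (trend on) of limma 3.58.1 in R 4.3.3 were fitted to log2(RPM + 1) of sites listed in at least 3 libraries. This scale understates changes of low sites. The fit was tested on simulated data. Tables used Python 3.11.15, pandas 2.3.3, NumPy 2.4.6 and SciPy 1.17.1, and figures matplotlib 3.10.9. Sites were found by aligning RefSeq miRNAs to RefSeq transcripts (TAIR10.1). The penalty so recomputed differed from the deposited score at most of the sites, the most at HSP70T-2 with miR835-5p (3 against 5). It was 5 against 4 at MTHSC70-2 and 4 against 4.5 at Fes1A. At HSP70B it was 6 against 5 with miR414 and 5 against 6 with miR169a-3p. The other sites had equal values.

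Members and lists were chosen with earlier results of these data known. Named were every site of the 5 genes, up to 12 other listed chaperone genes by summed RPM (small heat shock proteins and known targets as comparison lists), and the 5 loci of most similar pattern.

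Alternatives were a pseudocount of 0.25 RPM, no filter, rescaled libraries, a replicate block, and leaving out each library.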

Additional observations from a re-analysis of the deposited data

How the results depend on the processing

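Over all sites, limma calls between HS and Control fell from 16 to 9 with libraries rescaled to equal listed RPM, and to 5 to 16 without single libraries. For the 5 genes, the 5 sites called became 3 when rescaled and 1 to 5 without single libraries. The genes were chosen on this contrast, so nothing is read from their calls or from how far these held. Between Recovery and Control, 9 calls became 14 with a pseudocount of 0.25, 4 without the filter, 5 when rescaled and 1 to 10 without single libraries, and the 5 genes kept 0 calls under every alternative run. Their Control values set the choice, so nothing is read from that. Between Recovery and HS, 3 calls became 5 without the filter and 0 to 16 without single libraries. The 5 genes went from 0 to 2 without the filter (limma adjusted p = 0.0389 for HSP70T-2 with miR5628) and 0 to 4 without single libraries, from which nothing is read. The log2 difference of MTHSC70-2 between Recovery and Control, 0.03, ran from -0.14 to 0.17 without single libraries, turning to -0.04 without Control replicate 1 or 3 and to -0.14 without Recovery replicate 3. Rescaling moved the median of all sites by 0.13 for Recovery against Control. Summed RPM of the 5 genes ran from 12.6 to 25.1 in HS, from 1.34 to 3.36 in Recovery and from 0 to 0.174 in Control without single replicates, and their median fold in HS from 0.259 to 0.295.

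Same-numbered libraries did not deviate together (r from -0.0978 to 0.0991), so the numbers were not taken as pairs. With a replicate block limma called 14, 11 and 3 sites in the 3 contrasts (HS against Control, Recovery against Control, Recovery against HS), of which 4, 0 and 0 were of the 5 genes. Nothing is read from the counts of the 5 genes, which were chosen on their HS and Control values.

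Depth limits these sites: 17 of the 31 values were under 5 reads, and a site at 0 was not listed, which is not the same as absent. The cause of each change was not tested.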
